A study of Rattus norvegicus with 5 samples.

Results

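Neurotrophins are secreted growth factors that sensory neurons need for survival and for their adult properties. Of the 7 genes described here, 3 encode ligands (Bdnf, Ntf3 and Ntf4), 2 encode Trk receptor tyrosine kinases (Ntrk2 and Ntrk3), 1 encodes the p75 receptor (Ngfr) and 1 encodes sortilin (Sort1). They were chosen as a named family, with earlier results of these data known, out of 33014 genes in the combined table of TPM (transcript abundance corrected for length and scaled to the same total in every library), and all 7 were found there. RNA had been sequenced from 5 samples of cultured dorsal root ganglion cells, a mixture of sensory neurons and the glia, fibroblasts and macrophages around them. All 5 carried the same labels and formed 1 group: wild-type Sprague Dawley rats at postnatal day 10, from a litter of 10 pups, with cells plated at 5000 per well, given PBS (a saline vehicle) after 1 day of culture and kept for 8 days. Each sample pooled 3 wells. The labels do not give a separate litter or cell preparation for each sample, so the spread between them may be technical.

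In this ligand and receptor family, Bdnf and NT-4 (the product of Ntf4) bind TrkB, the product of Ntrk2, and NT-3 (the product of Ntf3) binds TrkC, the product of Ntrk3. The p75 receptor binds mature neurotrophins and, together with sortilin, their uncleaved precursors. In ganglia, the Trk receptors are known from classes of touch and position neurons, p75 from both neurons and Schwann cells, and Ntrk2 and Ntrk3 are also known to give truncated receptors that lack the kinase.

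The libraries held 21596608 to 27913098 estimated reads. Markers of neurons (6 of 6 genes), myelinating Schwann cells (3 of 3), immature Schwann cells and satellite glia (6 of 6), fibroblasts (6 of 6) and macrophages (4 of 4) were all at 1 TPM or more in every library, and 1 of 3 endothelial genes was. Over all genes in the table, 41.3% reached this level in every library. The marker counts describe the mixture and were not a test of the ganglion label. Of the endothelial genes, Cdh5 was at 18.6 ± 1.05 TPM, while Pecam1 and Cldn5 were at 0.68 ± 0.146 and 0.0967 ± 0.0695 TPM. In such bulk samples fewer cells of a type and less RNA per cell cannot be told apart, and no value below shows which cell expressed a gene. Replicate 1 stood apart in the myelin markers: Mbp, Pmp22 and Prx summed to 1649 TPM there and to between 2193 and 2367 TPM in the other 4 libraries.

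The cultures expressed all 4 receptor genes and, of the 3 ligand genes, only Bdnf reached the detection threshold. Detection meant at least 1 TPM in every library, which 5 of the 7 genes met, against 41.3% of all genes in the table. Ngfr was the highest, followed by Sort1, Ntrk2, Ntrk3 and Bdnf, with Ntf3 and Ntf4 far below. The 4 receptor genes together reached 377 ± 27.3 TPM (SD, n = 5) and the 3 ligand genes 14.8 ± 0.234 TPM. Since TPM is corrected for length, levels of different genes were set side by side. The sizes of their ratios depended on that correction, as given below.

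**Figure D1:**
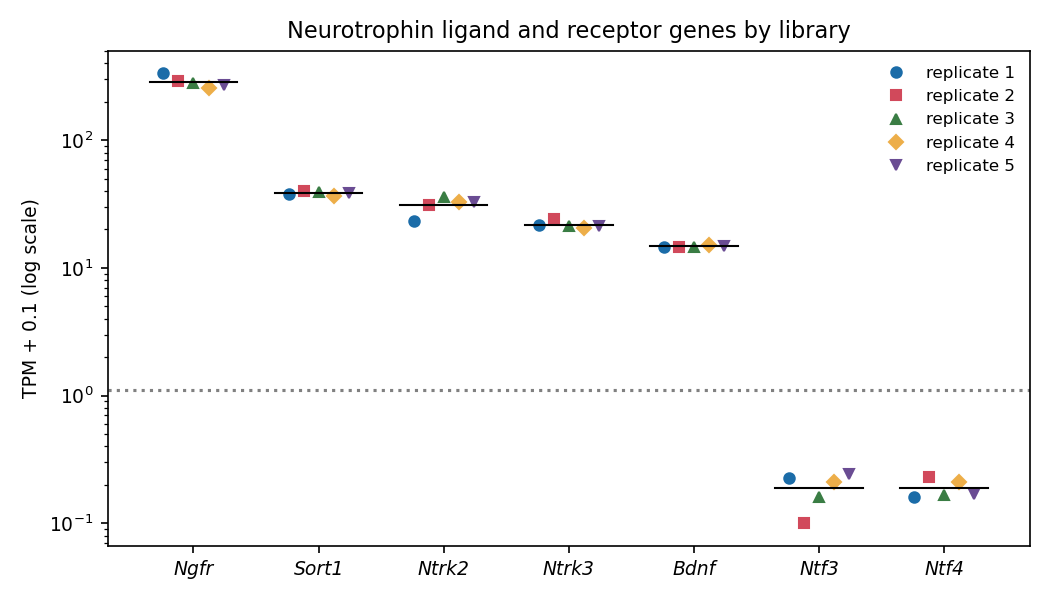
TPM + 0.1 on a log axis for the 7 genes, with 1 symbol per library, a black line at the mean of 5 libraries and a dotted line at the detection threshold of 1 TPM. Ngfr lies between 254 and 335 TPM, Sort1, Ntrk2, Ntrk3 and Bdnf lie between 14.5 and 40.3 TPM, and Ntf3 and Ntf4 lie below the threshold in every library.

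Ngfr, which encodes p75, a member of the TNF receptor superfamily, had 335, 289, 279.8, 254 and 271 TPM in replicates 1 to 5. Replicate 1 was the highest and replicate 4 the lowest. Its mean of 286 ± 30.3 TPM (SD, n = 5) ranked 514 among the 33014 genes and was higher than 96.2% of the detected genes. Between 10803 and 15418 reads per library stood behind these values, all on its single transcript, NM_012610.2. Ngfr held 75.7% ± 2.57 of the summed TPM of the 4 receptor genes, with a range of 73.9% to 80.2%.

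Sort1 encodes sortilin, a sorting receptor of the Vps10p family that also acts as co-receptor for neurotrophin precursors. It had 37.8, 40.3, 39.1, 36.4 and 38.4 TPM, a mean of 38.4 ± 1.44 TPM. These values were close together, with the highest library 1.11-fold above the lowest. Ngfr exceeded Sort1 by 7.40-fold (log2 2.89 ± 0.14, on the scale of log2(TPM + 0.1)), in 5 of 5 libraries. This ratio was 8.83-fold in replicate 1 and between 6.97-fold and 7.17-fold in the other 4 libraries.

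Ntrk2, the TrkB gene, had 23.0, 31.0, 35.7, 32.9 and 32.6 TPM in replicates 1 to 5, a mean of 31.0 ± 4.80 TPM. Replicate 1 lay below the other 4 libraries. Without replicate 1 the mean was 33.1 ± 1.93 TPM. All values of Ntrk2 lay below all values of Sort1, and the 2 genes differed by 1.25-fold on average (log2 0.32 ± 0.24, Sort1 over Ntrk2, higher in 5 of 5 libraries).

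Ntrk3, the TrkC gene, had 21.7, 24.2, 21.1, 20.3 and 21.02 TPM, a mean of 21.7 ± 1.52 TPM, with replicate 2 the highest. Ntrk2 exceeded Ntrk3 by 1.42-fold (log2 0.50 ± 0.28) and was higher in 5 of 5 libraries. The ranges nevertheless overlapped, because Ntrk2 in replicate 1 lay within the range of Ntrk3, and the within-library ratio ran from 1.06-fold in replicate 1 to 1.69-fold in replicate 3. Among neighbouring detected genes this was the one pair whose ranges over the libraries overlapped. Together the 2 Trk genes reached 52.7 ± 4.70 TPM, and Ngfr exceeded Ntrk2 by 9.24-fold (log2 3.21 ± 0.38) and Ntrk3 by 13.1-fold (log2 3.71 ± 0.14).

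Among the ligands, Bdnf had 14.5, 14.6, 14.6, 15.0 and 14.7 TPM. Its mean was 14.7 ± 0.204 TPM, and its coefficient of variation of 1.39% was below the 3.44% that counting error alone would give at its 755 to 997 reads per library. Bdnf lay below every value of Ntrk3, by 1.47-fold on average (log2 0.56 ± 0.11, Ntrk3 over Bdnf, higher in 5 of 5 libraries), and below Ntrk2 by 2.09-fold (log2 1.06 ± 0.23, Ntrk2 over Bdnf). It held 98.8% ± 0.289 of the summed TPM of the 3 ligand genes.

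Ntf3 and Ntf4 were near the limit of detection, with 7 reads each over the 5 libraries. Ntf3 was at 0.125, 0, 0.0602, 0.111 and 0.144 TPM, and the library at 0 allows up to 0.192 TPM (the level of 3 reads there). Ntf4 was at 0.0612, 0.131, 0.0652, 0.109 and 0.0704 TPM. The exact Poisson intervals of the mean at 95% were 0.0354 to 0.182 TPM for Ntf3 and 0.0351 to 0.18 TPM for Ntf4, covering counting error only. Ntf3 and Ntf4 did not differ beyond their spread (log2 -0.05 ± 0.70, Ntf3 over Ntf4; higher in 3 and lower in 2 of 5 libraries; exact sign-flip test, p = 0.875, two-sided). The mean TPM of Bdnf exceeded that of Ntf3 by 166-fold (interval 80.8 to 414, from the counting error of Ntf3) and that of Ntf4 by 168-fold (81.5 to 418). On the scale of log2(TPM + 0.1) used for the other pairs, the folds were 82.3 and 79.6. They are lower there because the added 0.1 is about as large as the levels of Ntf3 and Ntf4.

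For the other 5 neighbouring pairs in this order, every library gave the same direction, and the exact sign-flip test gave p = 0.063. That is the smallest value that 5 libraries allow, so no pair could pass a threshold of 0.05, and the separations above rest on sizes, spreads and ranges. All 21 pairs of the 7 genes were computed. Without the correction for length, as reads per library total, the log2 ratio of Ngfr was 1.75 over Sort1, 2.17 over Ntrk2 and 2.85 over Ntrk3, and that of Ntrk2 over Bdnf was 1.75.

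Promoter sequences of 300 bases were at hand for 4 of the genes (RefSeq, GRCr8) and are shown to set the starts of a detected and an undetected gene side by side. Each runs from 250 bases before to 50 bases after an annotated start, 5′ to 3′, and capitals mark CG dinucleotides. Shown are Sort1, which was detected, Ntf4, which was not, and 2 of the 6 listed starts of Bdnf, the pair with the most and the fewest CG dinucleotides.
Sort1, chr2:198612245-198612544, + strand: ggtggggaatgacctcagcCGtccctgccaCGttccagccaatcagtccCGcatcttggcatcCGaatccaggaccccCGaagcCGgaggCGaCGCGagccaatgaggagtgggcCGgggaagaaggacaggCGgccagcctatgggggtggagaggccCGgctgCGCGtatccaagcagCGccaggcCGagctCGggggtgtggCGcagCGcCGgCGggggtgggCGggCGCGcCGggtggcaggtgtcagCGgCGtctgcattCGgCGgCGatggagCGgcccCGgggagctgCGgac
Ntf4, chr1:105029785-105030084, + strand: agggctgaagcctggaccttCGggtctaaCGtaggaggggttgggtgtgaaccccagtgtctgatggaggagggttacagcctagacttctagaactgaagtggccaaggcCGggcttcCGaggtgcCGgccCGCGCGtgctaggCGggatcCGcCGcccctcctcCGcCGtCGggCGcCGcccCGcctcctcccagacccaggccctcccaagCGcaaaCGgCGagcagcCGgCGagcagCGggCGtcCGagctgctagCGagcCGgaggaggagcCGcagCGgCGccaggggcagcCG
Bdnf, start with the most CG, chr3:116637608-116637907, + strand: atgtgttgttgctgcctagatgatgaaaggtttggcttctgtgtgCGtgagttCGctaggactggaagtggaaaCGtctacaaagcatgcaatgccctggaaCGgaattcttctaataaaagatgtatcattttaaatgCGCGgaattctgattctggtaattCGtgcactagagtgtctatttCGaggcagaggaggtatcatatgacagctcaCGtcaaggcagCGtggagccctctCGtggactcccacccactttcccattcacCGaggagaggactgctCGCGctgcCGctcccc
Bdnf, start with the fewest CG, chr3:116620585-116620884, + strand: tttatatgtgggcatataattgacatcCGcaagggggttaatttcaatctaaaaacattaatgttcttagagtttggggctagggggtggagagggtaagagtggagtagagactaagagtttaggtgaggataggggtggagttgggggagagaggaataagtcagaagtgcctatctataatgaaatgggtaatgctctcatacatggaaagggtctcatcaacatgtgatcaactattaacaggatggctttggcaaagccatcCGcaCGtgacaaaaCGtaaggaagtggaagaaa
Sort1 had 33 CG dinucleotides and Ntf4 31, against a median of 7 over 33469 promoters of the same length. Both were thus CG-rich, while their levels were 38.4 TPM for Sort1 and 0.0874 TPM for Ntf4. The 6 Bdnf starts held between 4 and 15. Searched on both strands, the letters TATAAA were found in 1 of the 11 starts of these genes, the Bdnf start with 4 CG dinucleotides, and in 14.2% of all promoters. The exact letters TGACGTCA, the full cyclic AMP response element, were in none of the 11 and in 1.83% of all promoters. Variants of this element were not searched. The Bdnf start with the most CG holds the similar letters tcaCGtca, so the search does not show that these starts lack such an element. The GC box letters CCGCCC were in 6 of the 11 starts and in 33.1% of all promoters. Some of the 11 windows overlap, so they are not independent. These matches describe the letters in these windows, and the sequence table does not pair a start with a transcript.

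To the 7 genes 40 transcripts were assigned, all but 4 of them through RefSeq accessions. Unnamed transcripts without reads could not be placed, so the genes may have more. For Ntrk2 and Ntrk3 the named transcripts fell short of the gene level. In each case exactly 1 pair among all unnamed transcripts closed the gap in all 5 libraries to within 5e-05 TPM, and that pair was added, 4 transcripts in all. Sums of named transcripts alone had given 8.02 ± 3.71 TPM for Ntrk2 and 19.5 ± 1.504 TPM for Ntrk3. The tables used here do not say which transcript encodes a full-length or a truncated receptor, so the forms are given by accession and length.

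Most of the Ntrk2 signal lay on a single long transcript. XM_039095372.1, of 7076 bases and placed by the sum alone, was at 15.5, 25.02, 21.5, 28.4 and 22.5 TPM in replicates 1 to 5, which was 72.8% ± 10.5 of the gene. It was lowest in replicate 1 and was the highest Ntrk2 transcript in every library. NM_001163168.2, of 6931 bases, followed at 4.28 ± 1.98 TPM, 5.51-fold lower (log2 2.46 ± 0.79, XM_039095372.1 over NM_001163168.2; exact sign-flip test, p = 0.063), in 5 of 5 libraries. The third, XM_008771427.3, had only 1611 bases and 2.43 ± 2.03 TPM, and these 3 together held 94.4% ± 1.04 of the gene. NM_012731.2, of 4750 bases, was at 0.335 ± 0.346 TPM and had no reads in replicate 3.

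The transcripts of Ntrk2 other than the leading one had another pattern over the libraries. They summed to 7.48, 6.03, 14.1, 4.46 and 10.1 TPM in replicates 1 to 5, so they were highest in replicate 3 and lowest in replicate 4, where the leading transcript was highest. Transcripts that share sequence are divided by the quantification model, and how far the division itself varied was not tested.

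Ntrk3 was likewise led by 1 transcript, XM_008759513.3, of 4384 bases, at 17.5, 18.9, 16.8, 15.7 and 15.8 TPM. Its share of the gene's TPM was 78.1% ± 2.16, with little change between libraries. XM_039109624.1, of 19619 bases and placed by the sum, was at 1.99 ± 0.406 TPM or 9.15% ± 1.71 of the TPM, and because of its length it held 32.6% ± 5.83 of the gene's estimated reads. NM_019248.2 and NM_001270655.1, of 2707 and 2749 bases, were at 1.72 ± 0.778 and 0.837 ± 0.959 TPM. In replicate 5 NM_001270655.1 was at 2.49 TPM and NM_019248.2 at 0.484 TPM, while in replicate 1 the values were 0 and 2.30 TPM.

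For Sort1, NM_031767.1 (6690 bases) held 64.2% ± 3.81 of the TPM, XM_006233195.4 (7115 bases) 22.5% ± 4.07 and XM_006233196.4 (7013 bases) 13.3% ± 4.85. NM_031767.1 was the highest in 5 of 5 libraries, at 24.6 ± 1.52 TPM. XM_006233195.4 was above XM_006233196.4 in replicates 1 to 4, most in replicate 1 at 9.02 and 2.21 TPM, and below it in replicate 5, at 6.01 and 7.43 TPM.

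Bdnf is known for several promoters, each joined by splicing to a common coding exon, and its reads were spread over several transcripts. NM_012513.4 was at 3.45, 4.77, 4.51, 3.69 and 5.22 TPM, 29.5% ± 5.11 of the gene. NM_001270630.1 was at 4.82, 4.75, 3.34, 4.22 and 4.43 TPM, 29.4% ± 4.16 of the gene, and NM_001270633.1 was at 3.95, 2.92, 4.08, 4.56 and 3.09 TPM, 25.3% ± 4.58. Each of these 3 was the highest in at least 1 library, and they did not separate beyond the spread. For the first against the second, the log2 ratio was -0.000742 ± 0.35. The 3 held 84.3% ± 1.87 of the gene, 5 further transcripts had reads, and NM_001270634.1, NM_001270636.1 and NM_001270638.1 had none in any library. The estimates for individual transcripts thus varied far more between libraries than the 1.39% of the gene as a whole. These transcripts share sequence that the quantification model divides. How much of their spread came from that division or from counting error was not tested.

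**Figure D2:**
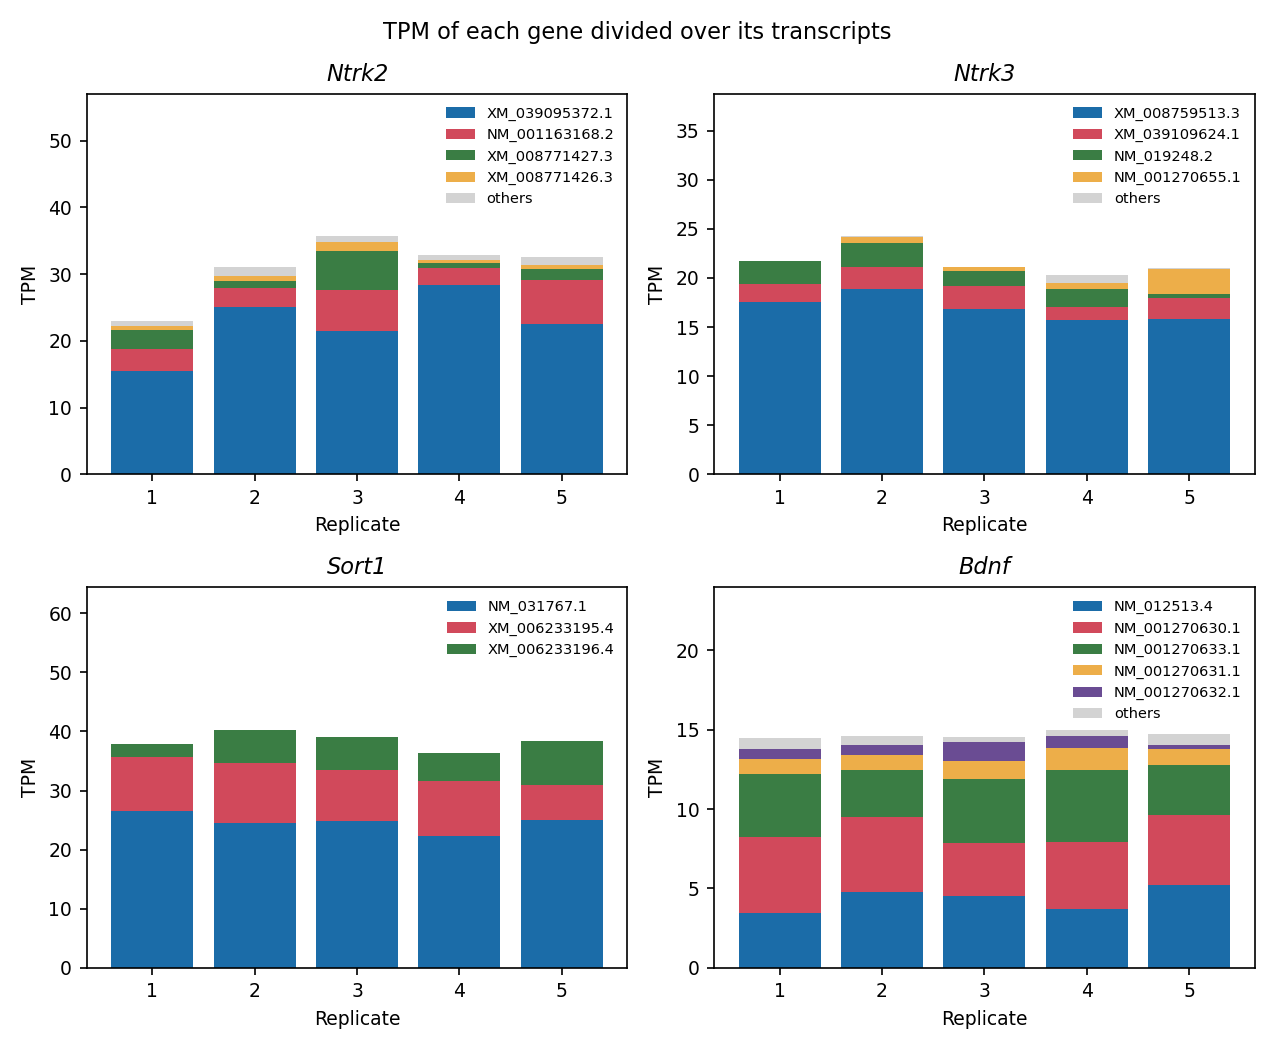
Stacked bars give the TPM of Ntrk2, Ntrk3, Sort1 and Bdnf in each of the 5 libraries, divided over their highest transcripts, with the remaining ones in grey. Ntrk2, Ntrk3 and Sort1 were each led by the same transcript in every library, while 3 Bdnf transcripts shared 84.3% of the gene.

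Between libraries, Ntrk2 and Ngfr varied most among the 5 detected genes, and in TPM Bdnf varied least. The standard deviation of log2(TPM + 0.1) was 0.24 for Ntrk2, 0.15 for Ngfr, 0.10 for Ntrk3, 0.05 for Sort1 and 0.02 for Bdnf, against a median of 0.06 over 9425 genes with a mean of at least 10 TPM. The biological coefficient of variation (BCV, the spread beyond counting error) from edgeR was 16.05% for Ntrk2, 9.37% for Ngfr, 4.28% for Ntrk3 and 2.88% for Sort1, with a median of 3.99% over 8869 genes. Ntrk2 stood above 94.2% of those genes and Ngfr above 83.98%. Bdnf had the lowest value the fit can give, 0.988%. With DESeq2 in place of edgeR the BCV was 4.79% for Bdnf and 3.73% for Sort1, so Bdnf was not the lowest there.

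Both high values rested on replicate 1. Without it the BCV was 4.16% for Ntrk2 and 4.34% for Ngfr, and without replicate 2 that of Ntrk3 was 1.76%. In replicate 1 Ntrk2 was the lowest of the 5 and Ngfr the highest, and Ngfr exceeded Ntrk2 by 14.5-fold there, against 7.71-fold to 9.29-fold in the other 4 libraries. Beside this, the 3 myelin markers summed to 1649 TPM in replicate 1 and 2193 to 2367 TPM elsewhere. The 6 markers of immature Schwann cells and satellite glia summed to 1981 to 2128 TPM, and the 6 neuronal markers to 5408 to 5779 TPM, both with replicate 1 inside the range of the others. The 4 macrophage markers, at 527 to 828 TPM, were lowest in replicate 2. What part these markers have in the levels of Ntrk2 and Ngfr was not tested.

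**Figure D3:**
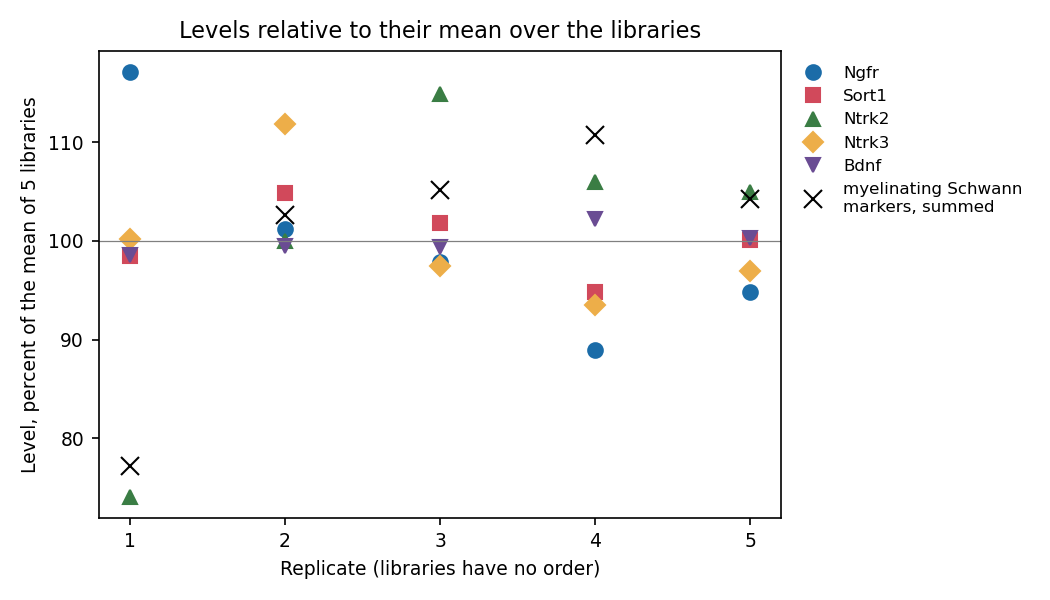
Level of the 5 detected genes, and of 3 myelinating Schwann cell markers summed, in each library as a percentage of their own mean over the 5 libraries. In replicate 1 Ngfr was at 335 TPM, above its other libraries, and Ntrk2 at 23.0 TPM, below its other libraries, as were the myelin markers at 1649 TPM, while Bdnf stayed between 14.5 and 15.0 TPM.

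The genes whose pattern over the 5 libraries was most like that of Ntrk2 were Cdh1 (E-cadherin, a cell adhesion gene), Mal (a proteolipid gene of myelin), Mmd2, Atp1b2 (a sodium pump subunit gene) and Csrp3 (a LIM domain gene known from muscle). Likeness was the root mean square difference of centred log2(TPM + 0.1) among 9424 genes. It was 0.05 for Cdh1 and Mal and 0.07 for Mmd2, Atp1b2 and Csrp3, where a gene with no variation would have had 0.22. Mal was at 92.8, 131, 141, 137 and 124 TPM in replicates 1 to 5, and Cdh1 at 9.49, 13.8, 14.3, 14.0 and 13.3 TPM. All 5 were lowest in replicate 1. With 5 libraries and genes picked for their likeness, this is a description without a test.

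Around the receptors, 47 of 53 genes listed for processing, binding and signalling of neurotrophins were detected (88.7%), against 41.3% of all genes in the table. The median of their mean TPM was 32.3, against 20.5 over all 13635 detected genes. The lists were written down for this family by name and were not tested.

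Among genes that cleave neurotrophin precursors or limit that cleavage, 10 of 13 were detected. The highest were Plat (tissue plasminogen activator) at 572 ± 20.1 TPM, the prohormone convertase gene Pcsk1 at 141 ± 6.61 TPM and Furin, a convertase of the secretory pathway, at 41.2 ± 1.98 TPM. Plg, the plasminogen gene on whose product Plat acts, was at 0.301 ± 0.0954 TPM, and the metalloproteinase genes Mmp7 and Mmp3 were at 0.437 ± 0.309 and 0.534 ± 0.203 TPM.

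Of the 4 sortilin relatives 3 were detected. Sorcs2, a co-receptor of p75, was at 58.2 ± 2.12 TPM, between 54.6 and 59.8 TPM and so above all values of Sort1. Sorcs1 followed at 34.6 ± 2.97 TPM, with a range of 30.2 to 37.3 TPM that overlapped the 36.4 to 40.3 TPM of Sort1. Sorcs3 was at 3.99 ± 0.312 TPM and Sorl1 at 0.521 ± 0.0643 TPM.

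All 9 listed partners of p75 were detected. They were led by Arhgdia at 947 ± 15.98 TPM, by Maged1 at 298 ± 6.42 TPM and by Bex3 at 216 ± 8.98 TPM. Maged1 and Bex3 encode proteins that bind the p75 intracellular part. Lingo1 and Rtn4r, whose products belong to the Nogo receptor complex, were at 11.5 ± 0.840 and 1.78 ± 0.179 TPM. Rtn4r had the lowest mean of the 9.

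Among Trk adaptors and scaffolds 13 of 14 were detected, led by the scaffold gene Sqstm1 at 802 ± 24.6 TPM, the adaptor gene Grb2 at 121 ± 3.05 TPM and Gipc1 at 106 ± 3.01 TPM. Shc1 and Shc2, which encode adaptors that bind activated receptor kinases, were at 68.03 ± 3.08 and 65.4 ± 2.44 TPM, while Shc3 was undetected at 0.803 ± 0.197 TPM. Of the downstream kinases and target genes 12 of 13 were detected. The highest were Mapk3 (ERK1) at 457 ± 10.3 TPM, Vgf, a secreted peptide precursor gene induced by neurotrophins, at 301 ± 16.6 TPM and Akt1 at 229 ± 5.85 TPM. The activity gene Arc was undetected at 0.483 ± 0.118 TPM, while Egr1, of the same list, was detected at 20.5 ± 0.645 TPM.

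**Figure D4:**
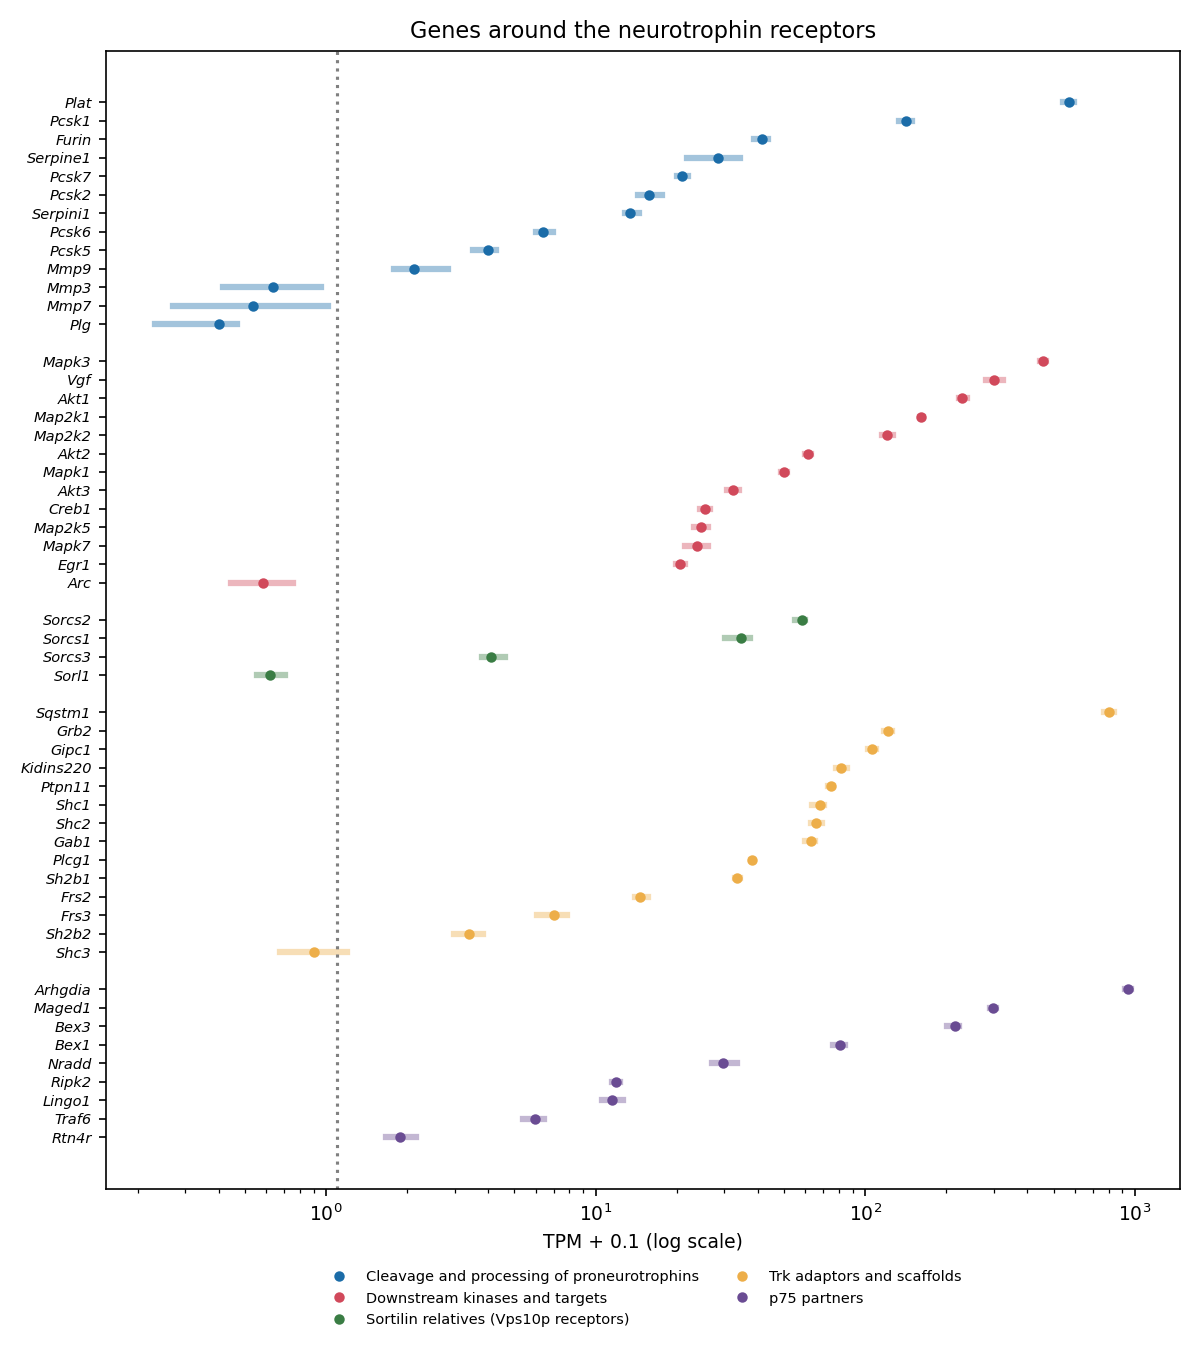
Mean TPM + 0.1 on a log axis (points) and range over 5 libraries (bars) of 53 genes around the receptors, grouped and coloured by list, with a dotted line at 1 TPM. Points left of the line or with bars crossing it are the 6 undetected genes, Plg, Mmp7, Mmp3, Sorl1, Shc3 and Arc.

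Of 6 touch and position neuron genes, the classes known for these receptors, 5 were detected, against 41.3% of all genes in the table. Necab2 at 28.3 ± 2.15, Nefh at 18.95 ± 1.37 and Etv1 at 16.02 ± 0.829 TPM were the highest, with a median of 9.97 TPM over the list. Pvalb was at 3.93 ± 2.03 and Runx3 at 2.95 ± 0.777 TPM, and Shox2, at 1.03 ± 0.203 TPM, was below the threshold in at least 1 library. Their sum lay between 66.3 and 75.8 TPM, and that of 5 pain-sensing neuron genes between 451 and 476 TPM, neither with its extreme in replicate 1. These values describe the mixture and do not assign Ntrk2 or Ntrk3 to a cell.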

How the data were processed

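Poly-A RNA of 5 samples was sequenced. The submitters' processing notes name Salmon 1.5.1, cutadapt 2.8, Trim Galore 0.6.6 and the mRatBN7.2 build. A strand setting is not given in the sources used here. Gene levels are the TPM that the authors deposited for 33014 genes. For each of 98811 transcripts, the length, the TPM and an estimated count of reads were deposited, as named per the file headers.

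The members and lists were chosen with earlier results of these data known. Each transcript took its gene from RefSeq's GRCr8 accessions, ignoring the version (67314 named, 68.1%); with version only 19512 matched, and none of Ntrk2, so that join stands as an alternative. No gene with over 25% of a member's TPM overlapped it in that table. Estimated counts were summed and rounded for 13802 genes whose transcript sum lay within 10% of the gene TPM (67.1% to 67.4% of the reads). They were fitted with edgeR 4.0.16 (TMM, filterByExpr, intercept only, prior degrees of freedom 1), and DESeq2 1.42.0 was an alternative. The fit was tried on data simulated with BCVs above the median of these data. Values as low as those of Ntrk3, Sort1 and Bdnf were therefore not checked. Ratios used a pseudocount of 0.1 TPM and a two-sided exact sign-flip test over 5 libraries. Floors are 3 reads. Named genes are the 7 members, the 3 highest and up to 3 lowest undetected genes of each pathway list, leading markers, and the 5 genes most like the most variable member. One listed cell type marker is not reported here and was left out of its sum. Lingo1, Rtn4r, Shc1, Shc2, Egr1, Shox2, Etv1, Pvalb, Runx3 and the endothelial genes were named after their values were seen. All 10 pairs of libraries differed beyond counting noise (chi-square per degree of freedom 2.69 to 9.02), so no library was a copy of another. This does not show whether they came from separate cell preparations. Alternatives covered thresholds, pseudocounts, joins, length normalization, dispersion tools and each library left out.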

Additional observations from a re-analysis of the deposited data

Results flagged for a closer look

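Of 39 values checked for a library far from the other 4, 2 were flagged. Chance alone flags about 1 in 20 of independent values. These values share genes and libraries, so the number flagged cannot be set against that rate. Both flags fell on replicate 1. For the 3 summed myelinating Schwann cell markers, the gap between replicate 1 (1649 TPM) and the nearest library was 0.757 of the whole range, above the critical value of 0.71. For the log2 ratio of Ngfr over Sort1, the gap between replicate 1 (3.14) and the nearest library was 0.882 of the range.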

How the results depend on the processing

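Of the 21 pairs of genes, 18 kept their direction under every alternative. Sizes moved more. Without length normalization Ngfr over Sort1 was 1.75 in place of 2.89 on the log2 scale, and Ngfr over Ntrk2 2.17 in place of 3.21. Bdnf over Ntf3 was 7.82 in place of 6.36 there. The pseudocount also moved Bdnf over Ntf3, to 7.70 with 0.01 TPM and to 3.85 with 1 TPM. Ngfr over Ntf3, at 10.63 in the main setting, was 11.97 and 8.04 with these pseudocounts. How much of the 7.82 came from length and how much from the pseudocount was not tested. With sums of named transcripts in place of the gene table, Ntrk2 fell below Ntrk3 (log2 -1.39) and below Bdnf (-0.98), while Ngfr over Ntrk2 was 5.25 and Sort1 over Ntrk2 2.36, since the leading Ntrk2 transcript is not named in the accession table. The ratio of Ntf3 over Ntf4 ran from -0.19 to 0.24 when 1 library was left out, positive without replicate 2. The ratio of the leading pair of Bdnf transcripts ran from -0.11 to 0.12 when 1 library was left out, positive without replicate 1 and without replicate 4, and was 3.73e-05 with a pseudocount of 1 and 0.11 with estimated reads; the cause was not tested. The counts of detected genes (5 members, 47 listed genes) were the same without any 1 library.

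In shares, NM_001163168.2 held 53.7% of Ntrk2 and XM_008759513.3 86.7% of Ntrk3 when only transcripts named by accession were summed, and NM_031767.1 held 100% of Sort1 with versions matched, since fewer transcripts then enter the sum. As shares of estimated reads, XM_008759513.3 held 59.2% and XM_039109624.1 32.6% of Ntrk3. Leaving out 1 library moved the BCV between 4.34% and 10.4% for Ngfr, 4.16% and 17.9% for Ntrk2, 1.76% and 4.98% for Ntrk3, and 0.988% and 1.47% for Bdnf; DESeq2 gave 3.73% for Sort1 and 4.79% for Bdnf. The planned ratio of full-length over truncated Trk forms was not run, because the tables used here do not annotate the forms; the ratio of the 2 highest transcripts was added after seeing the data. No paired analysis was possible because all libraries form 1 group. Depth limits Ntf3 and Ntf4, with 7 reads each.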
